A study of Mus musculus with 112 samples.

Results

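The interferon response and class I presentation genes are a set of 34 genes fixed by name: signalling components of the interferon response, sensors of viral nucleic acid, antiviral effectors, interferon-induced GTPases, the inducible subunits of the proteasome, the peptide loading machinery and the chains of the class I molecule. All 34 were found among the 32544 genes of the deposited count tables. Their transcripts were measured in gastrocnemius muscle of 56 Diversity Outbred (DO) mice, an outbred stock in which each animal has its own genotype, aged 16 weeks. Each mouse wore a cast on 1 limb for 3 weeks. RNA of the left and the right gastrocnemius was sequenced by a stranded total RNA protocol that removes ribosomal RNA. The 112 libraries form 4 groups of 28, by sex and by limb; the cast was on the right, and the left served as control. All groups carry the same outbred background with no engineered allele, side cannot be told apart from treatment, and the control limb came from an animal that wore a cast.

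Interferons are secreted proteins that bind receptors on nearly every cell and act through JAK kinases and STAT factors. Type I interferon brings Stat2 and Irf9 into a complex that binds GAAA repeats in promoters, while interferon gamma acts through a different promoter element. The induced genes block virus replication, and they also raise the display of cell peptides on class I molecules: the immunoproteasome cuts proteins into peptides, Tap1 and Tap2 pump the peptides into the endoplasmic reticulum, Tapbp (tapasin) helps to load them, and B2m joins the heavy chains H2-K1 and H2-D1 at the cell surface. Resting muscle fibres are known to carry little class I protein, whereas macrophages, lymphocytes and endothelial cells carry much.

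Promoter sequences were available for 27 of the 34 genes (RefSeq, GRCm38.p6; 250 bases before to 50 after each transcription start). The motif GAAA, any 2 bases, GAAA, sought on both strands as the core of the element bound by that complex and by IRF factors, was present for 13 of these 27 genes (48.1%) and for 3.99% of the 27025 genes in the promoter table. The motif TTCNNNGAA, which reads the same on both strands and is the core of the interferon gamma-activated element, was present for 7 of 27 (25.9%) and for 9.55% of all genes. Matches to the first motif were found for Ifit1, Ifit3, Isg15, Oas1a, Rsad2, Bst2, Gbp3, Gbp7, Igtp, Irgm1, Ifih1, Stat2 and B2m. This motif was present for 5 of the 16 genes called higher in the immobilized limb over the 46 animals described below (31.2%). Among the other 11 genes it was present for 8 (72.7%). Of these 8, Isg15, Oas1a, Rsad2 and Ifit1 were under the filter on low counts and were not tested over the 46 animals. The 11 thus mix genes not tested with genes tested and not called, and the 2 shares cannot be read against each other. The windows of Irf7 and Oasl2 held neither motif, and those of Tap1 and Psmb9 share 275 bases because the genes start head to head. The 200 bases upstream of the start are given for 5 genes: Bst2 and Gbp3, which rose in the immobilized limb, Ifit3, which was among the genes most alike in both limbs of an animal, Isg15, which carries overlapping matches, and B2m, the class I chain with a match. The bases run 5′ to 3′ on the strand of the gene and the capitals mark the motif GAAA, any 2 bases, GAAA or its reverse complement.
Bst2: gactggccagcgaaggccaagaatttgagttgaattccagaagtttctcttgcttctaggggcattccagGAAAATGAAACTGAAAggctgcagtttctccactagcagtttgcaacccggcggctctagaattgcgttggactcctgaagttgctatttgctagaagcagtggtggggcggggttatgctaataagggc
Gbp3: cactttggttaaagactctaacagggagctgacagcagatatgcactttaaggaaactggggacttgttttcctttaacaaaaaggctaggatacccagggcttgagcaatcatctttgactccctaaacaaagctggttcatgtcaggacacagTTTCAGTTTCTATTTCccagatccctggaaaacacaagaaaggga
Ifit3: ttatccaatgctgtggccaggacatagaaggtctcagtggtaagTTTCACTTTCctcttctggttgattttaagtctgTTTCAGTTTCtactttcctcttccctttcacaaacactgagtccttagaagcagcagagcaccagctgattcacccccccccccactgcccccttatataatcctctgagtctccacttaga
Isg15: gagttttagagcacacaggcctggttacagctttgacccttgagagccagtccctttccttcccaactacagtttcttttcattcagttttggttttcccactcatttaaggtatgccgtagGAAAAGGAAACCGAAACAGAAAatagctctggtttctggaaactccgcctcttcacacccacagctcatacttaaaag
B2m: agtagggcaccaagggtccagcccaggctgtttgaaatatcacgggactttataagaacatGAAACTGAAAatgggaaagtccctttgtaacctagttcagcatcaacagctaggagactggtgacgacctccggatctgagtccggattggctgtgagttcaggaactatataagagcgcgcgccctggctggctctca
These lie at chr8:71537473-71537672 (minus strand), chr3:142559844-142560043 (plus), chr19:34583329-34583528 (plus), chr4:156200819-156201018 (minus) and chr2:122147487-122147686 (plus). The first matched base lay 130 and 124 bases upstream of the start for Bst2, 45 and 39 for Gbp3, 156 and 122 for Ifit3, 78, 72 and 66 for Isg15 and 139 for B2m.

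The total count per library ran from 1716485 to 9995936 with a median of 4395118, so genes at a few CPM (read counts relative to the TMM-scaled library total) rest on few reads. The muscle marker Acta1, skeletal muscle actin, was below 50% of its median of 31492 CPM in 10 libraries, each from a different animal: the immobilized limbs of females 2, 22, 41 and 42 and of male 35, and the control limbs of females 26, 44 and 48 and of males 52 and 55. In the control limb of male 52, Acta1 stood at 3.45 CPM. The summed CPM of 16 markers of T, B and NK cells was 364 to 1689 in 8 of these 10 libraries, above the highest of the other 102 (186), and was 20.7 in male 35 and 28.1 in male 52. Counts of members are therefore given over all 56 animals and over the 46 animals (21 females and 25 males) without such a limb. The limbs of males 15 and 16 went against their labels: over the genes tested, deviations from the group mean correlated at 0.56 between the control limb of male 15 and the immobilized limb of male 16 and at 0.51 for the opposite pair, against 0.056 and 0.19 within the animals. They were kept as labelled, and the count of members over both sexes without these 2 males is given too. The correlations below were not repeated without them.

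The highest levels of H2-D1, H2-K1, B2m, Tap1, Tap2, Tapbp, Psmb8, Psmb9 and Psmb10 were measured in those 10 libraries. Markers of some other cells also stood higher there than in the other limbs of the same animals. The median sum was 707 against 130 CPM for macrophages, 740 against 24.6 CPM for adipocytes and 46 against 10.4 CPM for dendritic cells. It was 24.7 against 3.28 CPM for neutrophils and 347 against 265 CPM for endothelium. Fibroblasts (1220.1 against 1236.5 CPM) and Schwann cells (143 against 158 CPM) did not stand higher. The part of these cells in the levels of the members was not tested. H2-D1 ranged from 537 to 1520 CPM there, and from 23.8 to 476 CPM in the 92 libraries of the other 46 animals, so the ranges did not overlap. B2m was at 539 to 1368 CPM in the low-Acta1 limbs and at 49.1 to 576 CPM in the 92 libraries. Tap1 was at 39.8 to 140 CPM against 0.258 to 34.7, and Psmb9 at 13.1 to 109 CPM against 0.219 to 12.3, again with no overlap. Compared with the other limb of the same animal, the low-Acta1 limb was higher in 10 of 10 animals for each of the 9 immunoproteasome, peptide loading and class I chain genes, by a median of 18.2-fold for Psmb8, 16.9-fold for H2-K1, 7.56-fold for B2m and 3.32-fold for Tapbp. Of the 11 effectors, 2 were higher in the low-Acta1 limb in 10 of 10 animals (Xaf1 and Parp14), 4 in 9, 2 in 8, Ifit1 and Ifit2 in 7 and Rsad2 in 5. The 5 GTPases were higher in 8 to 10 of 10 animals, the 5 signalling genes in 7 to 10 and the 4 sensors in 7 to 10. How many of all genes stood higher in the low-Acta1 limbs was not counted, so these counts have no background beside them. Of these limbs 5 were immobilized and 5 were control limbs, and for Psmb8, Tap1, H2-K1 and B2m the immobilized limb was the higher in the first 5 animals and the lower in the other 5. In bulk tissue, fewer cells of a type and less RNA per cell cannot be told apart.

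**Figure D1:**
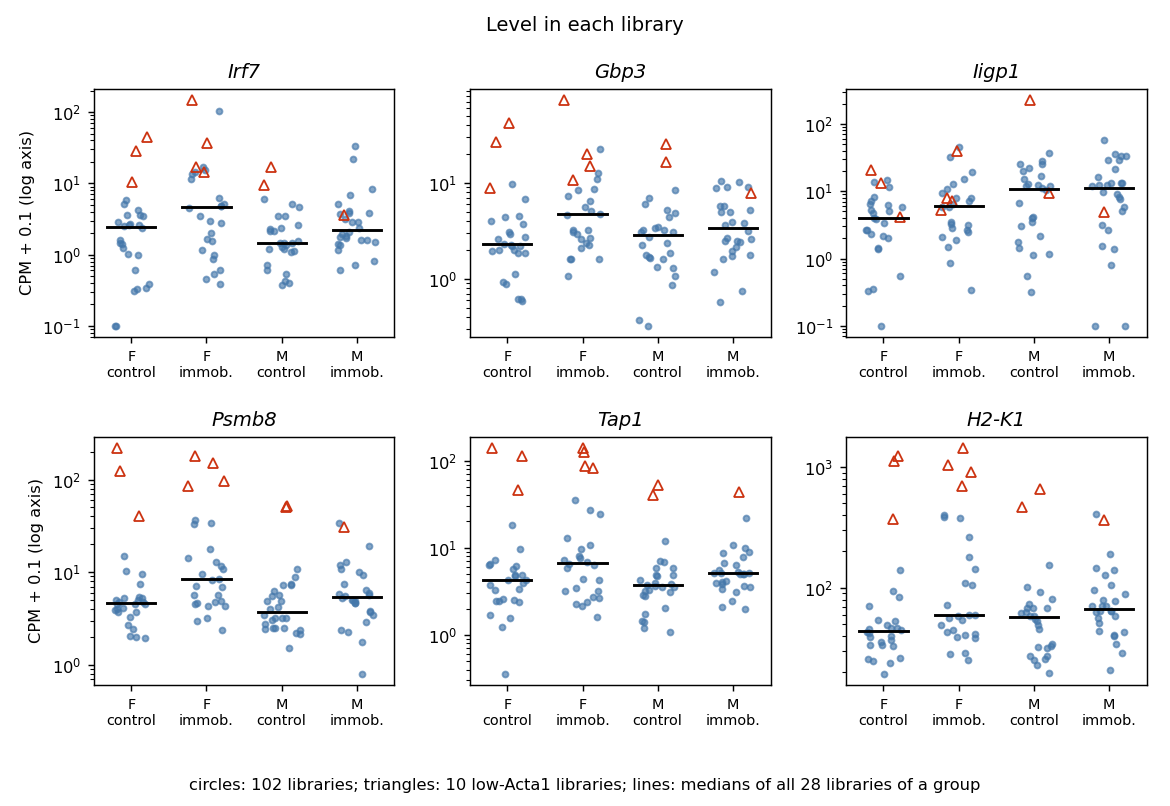
CPM + 0.1 (log axis) of 6 members in each of the 112 libraries by sex and limb; lines are medians of 28 and red triangles the 10 low-Acta1 libraries. The triangles of Tap1 lie between 39.8 and 140 CPM, above the circles of the same gene, while those of Iigp1 are mixed with the circles apart from 1 control limb at 226 CPM.

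Of the 34 genes, 28 passed the filter on low counts and were tested. The 6 of very low count were Usp18, which removes the ubiquitin-like Isg15 from proteins and restrains the receptor, the sensors Dhx58 and Zbp1, and the effectors Isg15, Oas1a and Rsad2. Their median count was 1 to 4 reads in the control limbs and 1.5 to 6 in the immobilized limbs, with Zbp1 at 0 in 38 and Oas1a at 0 in 40 of 112 libraries. Oas1a, a synthetase of the 2-5A messenger, had means of 0.935 ± 1.64 CPM (SD, n = 28) in control and 2.14 ± 3.02 CPM in immobilized limbs of females, and of 0.26 ± 0.37 and 1.32 ± 3.3 CPM in males. With a filter of a mean of at least 1 CPM all 34 could be tested, but Oas1a reached it only through the immobilized limb, so no test of it is given. Rsad2 (viperin), with a mean of 1.32 CPM in female and 0.972 CPM in male control limbs, then stood at 0.73 ± 0.23 on the log2 scale of immobilized over control limb (SE; adjusted p = 0.023 by edgeR). With no filter, Rsad2, Irf7, Oasl2 and Bst2 passed and Oas1a did not. On the control limbs alone, 24 members passed the filter on low counts, so some of the 28 may have entered through the immobilized limb. Which of them did so was not checked. The median level in control limbs was 1.47 CPM for Irf7 and 1.66 CPM for Oasl2.

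Over all 56 animals, 4 of the 28 tested members rose in the immobilized limb and 0 fell (edgeR quasi-likelihood test with a term for each animal, mean of the sexes, adjusted p of at most 0.05 over all genes). The background was 9.58% of 11886 genes higher and 10.4% lower, so 4 of 28 was close to the share of all genes. The 4 were Irf7, Oasl2, Bst2 and Gbp3. The median log2 fold change was 0.36 over the 28 members and 0.01 over all genes tested, with 27 of the 28 above 0, Gbp7 being the exception. Without males 15 and 16 it was 3, since Gbp3 no longer passed (0.57, edgeR adjusted p = 0.054), and without the term for each animal (no replicate block) it was also 3, again without Gbp3. Gbp3 also failed with no filter (edgeR adjusted p = 0.066) and with limma voom (0.39, adjusted p = 0.24), and in the limma fit to differences it passed in 47 of the 56 fits that left out 1 animal, failing without female 1, 2, 22, 41 or 42 or male 31, 35, 37 or 57. When the 10 animals with a low-Acta1 limb were left out, 27 members were tested, Ifit1 falling under the filter, and 19 rose and 0 fell, against a background of 16% higher and 16.5% lower among 11731 genes. The median of the members was 0.36 with and without those animals, and the 4 genes of the first count were all among the 19. The standard error was smaller over the 46 animals for 25 of the 27 members tested in both sets, Ifih1 and Ifit2 being the exceptions.

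**Figure D2:**
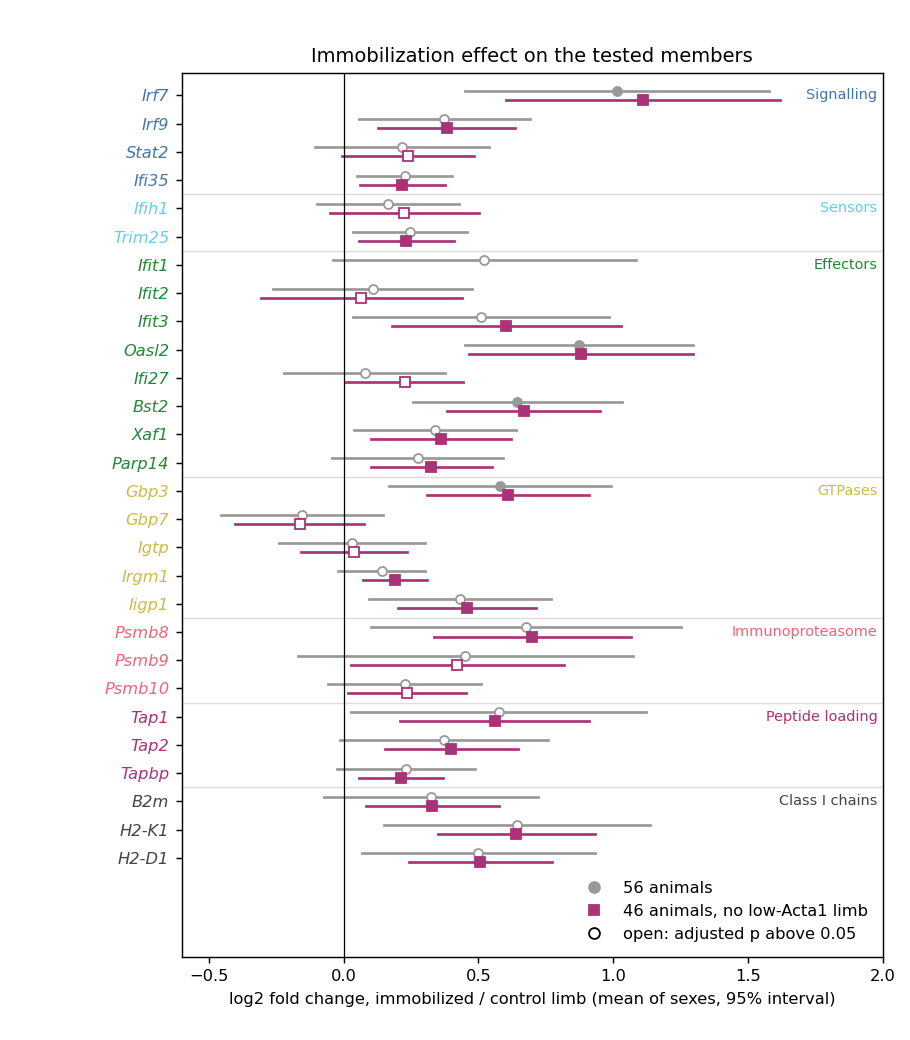
Log2 fold change of the immobilized over the control limb (mean of the sexes, 95% interval) for the 28 tested members, by role, over 56 animals (grey) and 46 animals (purple); filled symbols passed an adjusted p of 0.05. The points lie at similar places in both sets, the purple intervals are mostly shorter, and 19 purple symbols are filled against 4 grey ones.

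Among the signalling genes, Irf7, the factor that amplifies interferon production, had the largest fold change of the tested members. In females its level ran from 0 through a median of 2.33 to 44.9 CPM in control limbs and from 0.287 through 4.57 to 148 CPM in immobilized limbs. In males it ran from 0.277 through 1.37 to 17.1 CPM and from 0.5 through 2.11 to 32.9 CPM. The ranges overlapped widely, and the gene was higher in the immobilized limb of 44 of 56 animals. Its log2 fold change came to 1.01 ± 0.29 (SE; adjusted p = 0.0099 by edgeR) over 56 animals and 1.11 ± 0.26 (edgeR adjusted p = 0.001) over 46. Irf9, the DNA-binding part of the type I complex, stood at 0.37 ± 0.16 (edgeR adjusted p = 0.091) and rose over the 46 animals by 0.38 ± 0.13 (edgeR adjusted p = 0.02). Its partner Stat2 passed in neither set (0.22 ± 0.16 and 0.24 ± 0.12). Ifi35, an interferon-induced leucine zipper protein, stood at 0.23 ± 0.09 over 56 animals and rose by 0.22 ± 0.08 over 46 (edgeR adjusted p = 0.034). Of the tested sensors, Trim25, a ubiquitin ligase that activates RIG-I, rose over the 46 animals (0.23 ± 0.09, edgeR adjusted p = 0.041), and Ifih1 (MDA5), a receptor for long double-stranded RNA, did not pass (0.23 ± 0.14).

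Of the 8 effectors tested over 56 animals, 2 rose, and of the 7 tested over 46 animals, 5 rose. The shares of all genes that were higher in these sets were 9.58% and 16%. Oasl2, an oligoadenylate synthetase-like protein, had medians of 1.78 and 3.1 CPM in control and immobilized limbs of females, with extremes of 0 and 21.2 and of 0.287 and 34.2 CPM. In males the medians were 1.54 and 1.82 CPM, and the highest values 7.39 and 25.4 CPM. It was higher in the immobilized limb of 38 of 56 animals, by 0.87 ± 0.22 on the log2 scale (adjusted p = 0.0036 by edgeR), and by 0.88 ± 0.21 over 46 animals (adjusted p = 0.0014 by edgeR). Bst2 (tetherin), which holds budding virus at the cell surface, was higher in 40 of 56 animals. Its female medians were 5.86 CPM (2.91 to 67.5) in control and 10.7 CPM (2.65 to 90.3) in immobilized limbs, and its male medians 5.49 (3.34 to 22.8) and 8.17 CPM (2.4 to 63). The log2 fold change was 0.64 ± 0.20 (edgeR adjusted p = 0.016), and over 46 animals it was 0.67 ± 0.14 (edgeR adjusted p = 0.00043), the smallest adjusted p of the members there.

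Ifit3, a protein that binds viral RNA together with Ifit1 and Ifit2, Xaf1, which favours cell death, and Parp14, an ADP-ribosyltransferase, passed by edgeR over the 46 and not over the 56 animals. Limma voom called Ifit3 over the 56, and edgeR called it in animals 1 to 20. The log2 fold changes of Ifit3, Xaf1 and Parp14 over the 46 were 0.60 ± 0.22, 0.36 ± 0.13 and 0.32 ± 0.11 (edgeR adjusted p = 0.028, 0.031 and 0.026). Ifit3 was higher in 28 of the 46 animals and Xaf1 in 32. Ifit2 and Ifi27 passed in neither set: Ifit2 stood at 0.11 ± 0.19 and 0.07 ± 0.19, and Ifi27 at 0.08 ± 0.15 and 0.23 ± 0.11. The reads of Ifit3 may be shared with its near-identical copy Ifit3b, and those of Oas1a with related Oas1 genes, so their values are uncertain.

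The 5 GTPases, of families that act in defence against intracellular microbes, divided. Gbp3, a guanylate-binding protein, had female medians of 2.19 CPM (0.485 to 42.2) in control and 4.61 CPM (0.965 to 72.9) in immobilized limbs. Its male medians were 2.79 CPM (0.225 to 25.5) and 3.27 CPM (0.476 to 10.4). It was higher in the immobilized limb of 40 of 56 animals, by 0.58 ± 0.21 on the log2 scale (adjusted p = 0.042 by edgeR) and by 0.61 ± 0.15 over 46 animals (edgeR adjusted p = 0.002). The immunity-related GTPases Iigp1 and Irgm1 rose over the 46 animals by 0.46 ± 0.13 and 0.19 ± 0.06 (edgeR adjusted p = 0.006 and 0.013). Gbp7 (-0.16 ± 0.12) and Igtp (0.04 ± 0.10) did not pass, and Gbp7 was higher in the immobilized limb of 20 of 46 animals.

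None of the 9 genes of peptide production, loading and display passed over 56 animals, and 7 of them rose over 46. Of all genes, 9.58% and 16% were higher in these sets. At an unadjusted p within 0.05, 4 of the 9 passed over 56 animals by edgeR, as did 4055 of all 11886 genes, 2026 of them higher. DESeq2 called Psmb8, Tap1, H2-K1 and H2-D1 over 56 animals at an adjusted p of at most 0.05, and limma voom called H2-K1. Of all 11886 genes, DESeq2 called 1569 higher and limma voom 1288. H2-K1, a class I heavy chain, had female medians of 43.5 CPM (19.3 to 1225) in control and 59.9 CPM (25.1 to 1439) in immobilized limbs, and male medians of 56.7 CPM (19.6 to 662) and 67 CPM (20.7 to 407). It was higher in the immobilized limb of 43 of 56 and of 38 of 46 animals. The log2 fold change was 0.64 ± 0.25 (edgeR adjusted p = 0.06) over 56 and 0.64 ± 0.15 (edgeR adjusted p = 0.00091) over 46 animals, the same size with a smaller error. Over 46 animals the other heavy chain, H2-D1, rose by 0.51 ± 0.14 (edgeR adjusted p = 0.0036) and the shared light chain B2m by 0.33 ± 0.13 (edgeR adjusted p = 0.039). H2-K1 and H2-D1 are close relatives and differ among mouse strains, so reads may be shared between them or lost to either, and their values are uncertain.

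Psmb8, the inducible proteasome subunit that replaces Psmb5, rose over 46 animals by 0.70 ± 0.19 (edgeR adjusted p = 0.0034). The other inducible subunits, Psmb9 and Psmb10, did not pass (0.42 ± 0.20 and 0.23 ± 0.11, edgeR adjusted p = 0.1 each). The transporter subunits Tap1 and Tap2 rose by 0.56 ± 0.18 and 0.40 ± 0.13 (edgeR adjusted p = 0.014 and 0.013), and Tapbp by 0.21 ± 0.08 (edgeR adjusted p = 0.034). Tap1 was higher in the immobilized limb of 32, Tap2 of 30 and Tapbp of 26 of the 46 animals.

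**Figure D3:**
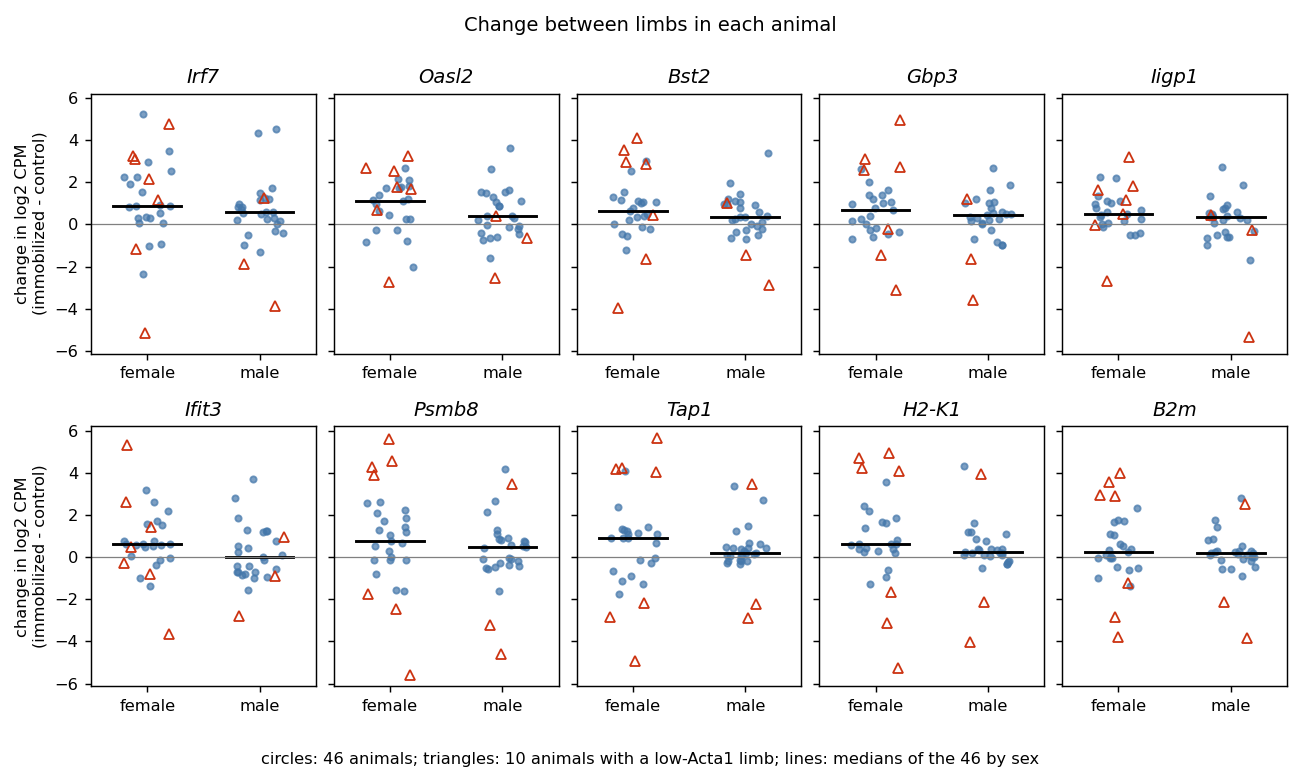
Change in log2 CPM (immobilized minus control limb) in each animal for 10 members; circles are the 46 animals, red triangles the 10 animals with a low-Acta1 limb, and lines the medians of the 46 by sex. Triangles of Psmb8, Tap1, H2-K1 and B2m lie far above and far below 0, while most circles lie within 2 units of 0.

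The series asks about sex-specific remodelling, and the sexes were compared within the same model. In females, 2 of 28 members rose over all animals (Irf7 and Oasl2), with a background of 2.1% of genes higher and 2.47% lower, and 11 of 27 rose without the low-Acta1 animals (background 8.1% higher and 9.1% lower). These 11 were Irf7, Ifit3, Oasl2, Bst2, Parp14, Gbp3, Irgm1, Iigp1, Psmb8, H2-K1 and H2-D1. In males, 0 of 28 members passed over all animals, where the background was 1.09% higher and 1.12% lower. By edgeR 0 members had an unadjusted p within 0.05, and DESeq2 and limma voom called 0. Bst2 was the 1 of 27 that rose in males without the low-Acta1 animals (0.58 ± 0.20, edgeR adjusted p = 0.049; background 4.23% higher and 4.9% lower). The number of female calls moved with 1 animal: in a limma fit to the differences between limbs, 1 member passed in females with all animals and 20 passed without female 26, whose control limb had low Acta1. Of all genes, 200 were higher in females in the first of these fits and 1236 in the second.

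The difference between the sexes was not called for any member or for any of the 11886 genes (edgeR, male minus female effect; 0% of genes, with 194 genes and 0 members at an unadjusted p within 0.05). DESeq2 and limma voom also called 0 genes, with 0 and 3 members at an unadjusted p within 0.05. The fitted difference lay below 0 in 28 of 28 members over 56 animals, with a median of -0.41, and in 25 of 27 over 46 animals, with a median of -0.18. For Irf7 it was -0.86 (95% interval -1.99 to 0.28) and for Ifit3 -0.80 (-1.76 to 0.16), so differences of either sign lie within the intervals. The direction was not shared by all ranges of animal number. It lay above 0 in 26 of 27 members in animals 21 to 40 (median 0.51). It lay below 0 in 27 of 27 in animals 1 to 20 (median -0.65) and 33 of 33 in animals 41 to 59 (median -1.16). In each range 0 members were called. These fits kept the animals with a low-Acta1 limb. In 21 to 40 the low limb was immobilized in female 22 and male 35 and control in female 26. In 41 to 59 it was immobilized in females 41 and 42 and control in females 44 and 48 and males 52 and 55. In 1 to 20 it was the immobilized limb of female 2. The part of these limbs in the direction was not tested.

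In control limbs, Iigp1 was the 1 of 24 tested members that differed between the sexes, against a background of 0.975% of 10974 genes higher in males and 0.756% lower. Its level ran from 0 through a median of 3.95 to 20.4 CPM in females and from 0.218 through 10.6 to 226 CPM in males, a log2 difference of 1.81 ± 0.47 (edgeR adjusted p = 0.026). The ranges overlapped, and the value of 226 CPM was the control limb of male 52. Without the animals with a low-Acta1 limb the difference was 1.24 ± 0.43 and no longer passed (edgeR adjusted p = 0.11).

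Some members had similar ranks of animals in both limbs. Across 56 animals, with each limb centred within sex, the control and the immobilized limb were correlated for 3 of 28 members (Pearson, permutation of animals within sex, adjusted p of at most 0.05 over all genes), against a background of 7.76% of 11886 genes. They were Iigp1, Xaf1 and Ifit3. Over the 46 animals it was 7 of 28, with a background of 16.3%: Iigp1, Ifit3, Xaf1, Gbp3, Gbp7, Igtp and Oasl2, and these 7 also passed by Spearman correlation. The median r was 0.21 over the 28 members and 0.18 over all genes.

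Iigp1, a GTPase of the IRG family, had the highest agreement of the members. Pearson r was 0.72 and Spearman rho 0.78 over 56 animals (permutation p = 1e-05 each, the smallest that 100000 resamples can give; adjusted p = 0.00037 and 0.00038). Within animals numbered 1 to 20, 21 to 40 and 41 to 59 this r was 0.86, 0.81 and 0.38. Over 46 animals r was 0.86 and rho 0.87, and r was 0.87 without the 2 animals farthest from the median. Within the same ranges it was 0.89, 0.83 and 0.90. In the immobilized limbs of the 46 animals Iigp1 ran from 0 to 56.5 CPM, and male 57, which was at the top of that range, also had the highest control limb, at 37.4 CPM. Ifit3 had r = 0.63 and rho = 0.67 over 46 animals (permutation, adjusted p = 0.00026 and 0.00031), 0.59 without the 2 farthest, and 0.70, 0.44 and 0.85 within the 3 number ranges. Xaf1 had r = 0.63 over all 46 (permutation, adjusted p = 0.00026) but -0.03 in animals 21 to 40, so it did not hold within each range. Gbp3 and Gbp7 had r = 0.56 and 0.52, with 0.39 and 0.43 as their lowest values within a range, while Igtp (r = 0.44) had -0.02 in animals 41 to 59.

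**Figure D4:**
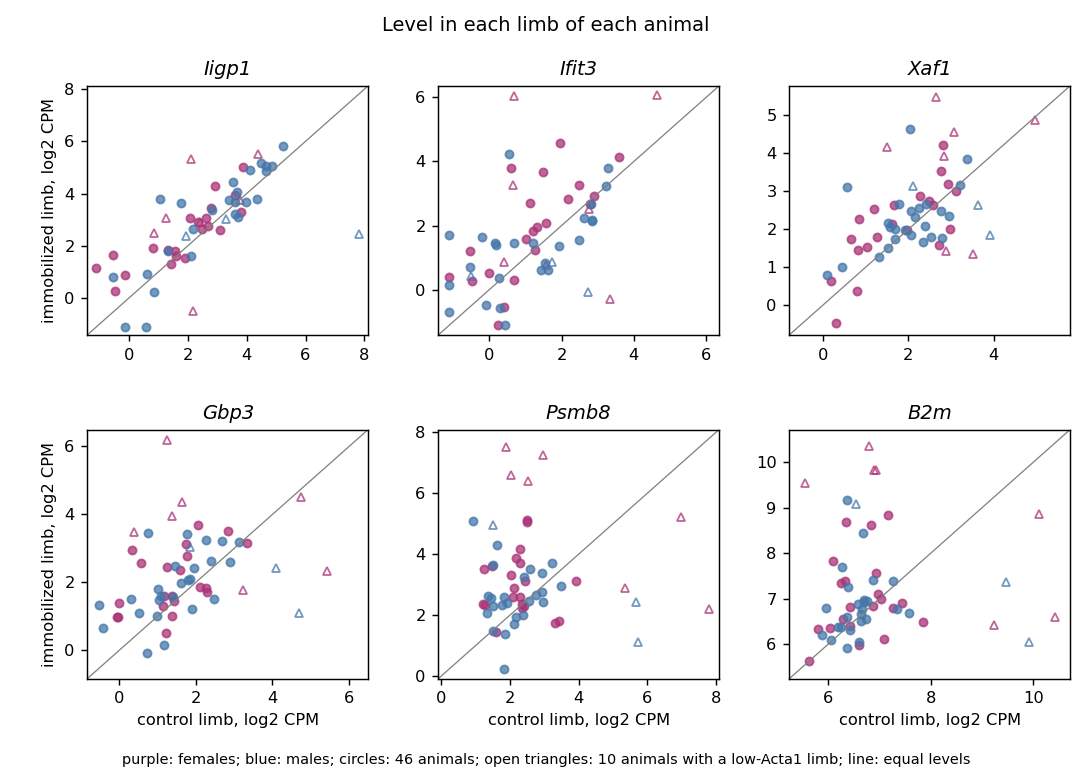
Log2 CPM in the immobilized against the control limb of each animal for 6 members; purple marks females, blue males, open triangles the 10 animals with a low-Acta1 limb, and the line equal levels. Circles of Iigp1 follow the line (r = 0.86 over 46 animals), whereas those of Psmb8 (r = 0.01) and B2m (r = 0.17) do not.

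The genes of peptide production, loading and display did not show this agreement: 0 of 9 passed in either set of animals, and over 46 animals r ran from -0.21 (Psmb10) to 0.35 (H2-D1). Ifit1, H2-D1 and H2-K1 passed by Spearman correlation alone over the 46 (rho = 0.45, 0.42 and 0.43, permutation, adjusted p = 0.021, 0.038 and 0.022). Within the number ranges, H2-K1 had r = 0.46, -0.34 and 0.87 and H2-D1 had 0.58, -0.37 and 0.90. Of the GTPases, 4 of 5 passed over 46 animals, the exception being Irgm1 (r = 0.36, permutation, adjusted p = 0.069).

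Markers of macrophages and of other cells were compared between the limbs as well. Of 12 macrophage and monocyte markers, 11 were tested and 10 were higher in the immobilized limb in both sets of animals, with a median log2 fold change of 0.79 over 56 and 0.83 over 46. In the 46 animals their summed level ran from 72.9 through a median of 115 to 164 CPM in female control limbs and from 28.2 through 175 to 590 CPM in female immobilized limbs, and from 24.5 through 95.7 to 188 and from 37.8 through 137 to 1660 CPM in males. No marker of that list was at 0 throughout any group. The T, B and NK sum had medians of 2.29 and 3.58 CPM in control and immobilized limbs of those females (0.34 to 186 and 0.263 to 29.2) and of 1.96 and 2.55 CPM in those males (0.45 to 3.13 and 1.06 to 5.42), with Cd8b1 at 0 in every male library of the 46 animals. Of these 16 markers 0 passed the filter on low counts, so in most libraries the sum rests on few reads. Schwann cell markers were higher for 5 of 6 over 56 and 6 of 6 over 46 animals, with a summed level of 66.7 to 819 CPM (median 145) in control and 95.7 to 1189 CPM (median 220) in immobilized limbs of the 46, higher in 35 of them. Fibroblast markers were higher for 3 of 6 in both sets, with median sums of 1133 and 1155 CPM. Adipocyte markers passed for 0 of 6 in both sets. Of the dendritic cell and the neutrophil markers 1 each was tested, and 0 passed in either set. Among the endothelial markers 0 were higher and 3 lower of 7 over 56 animals, and 1 higher and 1 lower over 46, with a median sum of 258 CPM in control and 262 CPM in immobilized limbs of those 46.

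Across the 46 animals, the change of 19 of 28 members was positively correlated with the change of the summed macrophage markers (Pearson, permutation, adjusted p of at most 0.05), against a background of 17.6% of 11886 genes, and that of Gbp7 was negatively correlated (r = -0.40). For the T, B and NK sum, which rests on few reads in most libraries, it was 9 of 28 against 6.22%. Of these, 16 and 6 also passed by Spearman correlation. These relations were chosen after other results had been seen. With the macrophage sum, r was 0.73 for Bst2, 0.72 for Psmb8 and H2-D1, 0.71 for H2-K1, 0.67 for B2m and 0.64 for Irf7 (permutation, adjusted p = 0.00017 each, with 1e-05 as the raw p and as the smallest that 100000 resamples can give). Spearman rho was 0.72, 0.68, 0.70, 0.70, 0.66 and 0.59 in the same order, and r without the 2 farthest animals was 0.67, 0.68, 0.64, 0.64, 0.60 and 0.55. All 9 genes of peptide production, loading and display and all 4 tested signalling genes passed, and 0 of the 5 GTPases did: r was 0.17 for Gbp3, 0.34 for Iigp1, 0.11 for Irgm1 and 0.07 for Igtp. Over 56 animals, the low-Acta1 limbs included, 26 of 28 members passed, Gbp3 (r = 0.60) and Iigp1 (r = 0.43) among them. The background was larger there too, with 4104 of 11886 genes positively correlated. With the T, B and NK sum over 46 animals, r was 0.66 for B2m, 0.65 for H2-K1 and 0.63 for H2-D1 (permutation, adjusted p = 0.0038, 0.0038 and 0.0045), and 0.61, 0.51 and 0.53 without the 2 farthest animals. For Tap1 and Psmb9, r with that sum was 0.52 and 0.45, and 0.29 and 0.24 without the 2 farthest, so it rested on those animals. The part of these cell types in the immobilization result was not tested.

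**Figure D5:**
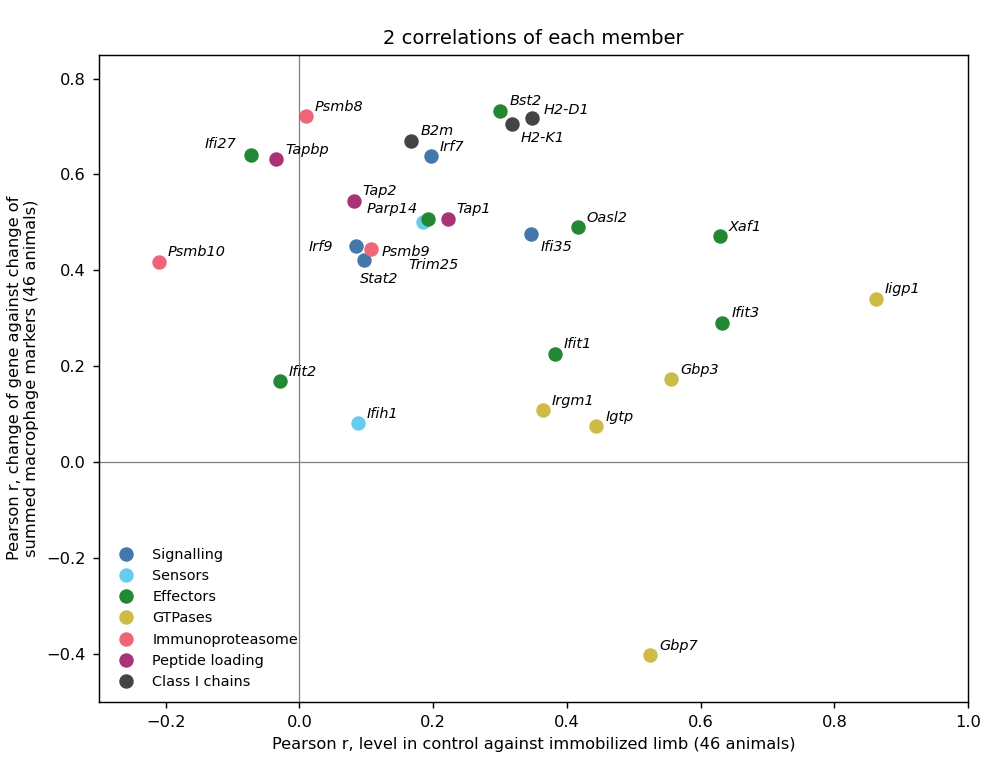
For each of the 28 tested members over 46 animals, Pearson r between the limbs (x) against Pearson r of its change with the change of the summed macrophage markers (y), coloured by role. GTPases lie to the right and low (Iigp1 at 0.86 and 0.34), and class I chains lie high and to the left of them (H2-K1 at 0.32 and 0.71).

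Other genes of the pathway, from lists of ligands, receptors, factors and further induced genes, gave 8 higher and 7 lower of 96 tested over 56 animals and 23 higher and 7 lower of 92 over 46, with medians of 0.18 and 0.17. Against the background of 9.58% higher and 10.4% lower over 56 animals, these counts were no larger than the share of all genes; over 46 animals that background was 16% higher and 16.5% lower. Of 8 ligands, only Il15, a cytokine that sustains NK and memory T cells, was expressed enough to be tested, and it fell by 0.44 ± 0.13 over 56 and by 0.48 ± 0.13 over 46 animals (edgeR adjusted p = 0.01 and 0.0034). Of 8 tested receptors and kinases, 0 rose and 2 fell in both sets. They were the kinase Jak2 (-0.31 ± 0.06 and -0.30 ± 0.07, edgeR adjusted p = 0.00048 and 0.00067) and the interferon gamma receptor chain Ifngr2 (-0.16 ± 0.06 and -0.22 ± 0.05, edgeR adjusted p = 0.04 and 0.00092). Of 9 tested transcription factors 0 passed over 56 animals by edgeR (1 at an unadjusted p within 0.05), and of 8 tested over 46 animals Irf3 (0.21, edgeR adjusted p = 0.015) and Rfx5 (0.19, edgeR adjusted p = 0.047) rose. Irf1, a factor induced by interferon gamma, stood at 0.06 ± 0.19 and 0.06 ± 0.13. Mavs, the adaptor through which Ifih1 signals, fell (-0.37 ± 0.09 and -0.39 ± 0.07, edgeR adjusted p = 0.003 and 7.8e-05), and so did the phosphatase Ptpn11 (-0.24 ± 0.06 and -0.20 ± 0.04, edgeR adjusted p = 0.0035 and 0.00037).

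Of the further induced genes, 3 of 32 tested rose and 1 fell over 56 animals, and 10 of 31 rose and 1 fell over 46. The membrane proteins Ifitm3 and Ifitm2, which block virus entry, rose by 0.57 ± 0.13 and 0.39 ± 0.11 over 56 animals (edgeR adjusted p = 0.0017 and 0.012) and by 0.58 ± 0.12 and 0.38 ± 0.10 over 46 (edgeR adjusted p = 0.00027 and 0.0029). Slfn2 rose in both sets (0.90 ± 0.33 and 0.94 ± 0.21, edgeR adjusted p = 0.043 and 0.00079), and Slfn5 fell (-0.58 ± 0.15 and -0.53 ± 0.14, edgeR adjusted p = 0.0056 and 0.0031). In the wider class I list, 3 of 20 tested rose and 1 fell over 56 animals, and 7 of 18 rose and 1 fell over 46. Pomp, which assembles proteasomes, rose in both sets (0.31 ± 0.05 and 0.30 ± 0.05, edgeR adjusted p = 0.00012 and 2.6e-05). The non-classical heavy chain H2-T23 was higher by 0.58 ± 0.21 and 0.58 ± 0.13 (edgeR adjusted p = 0.037 and 0.00082). The MHC-linked gene H2-Ke6 rose by 0.22 ± 0.06 and 0.27 ± 0.05 (edgeR adjusted p = 0.012 and 6.8e-05). Erap1, which trims peptides before loading, fell (-0.23 ± 0.07 and -0.18 ± 0.06, edgeR adjusted p = 0.012 and 0.023). Of the constitutive subunits that the inducible ones replace, Psmb5 (0.18 ± 0.07 and 0.17 ± 0.06, edgeR adjusted p = 0.048 and 0.021) and Psmb6 (0.20 ± 0.06 and 0.21 ± 0.05, edgeR adjusted p = 0.015 and 0.00046) rose. Of 11 further GTPases tested, 0 passed over 56 animals by edgeR (1 at an unadjusted p within 0.05), and Gbp2 rose over 46 (0.41 ± 0.13, edgeR adjusted p = 0.013).

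Within ranges of animal number the calls were fewer. Fitted separately, animals 1 to 20 gave Irf7, Ifit3 and Irgm1 of 27 tested members as higher, where 510 of 11437 genes were higher. Animals 21 to 40 and 41 to 59 gave 0 members by edgeR (4 and 1 at an unadjusted p within 0.05). In those 2 ranges 1 and 2 genes in all were called higher. Animals with a low-Acta1 limb were kept in these fits. The log2 fold change in the 3 ranges was 1.43, 1.15 and 0.40 for Irf7, 0.74, 0.97 and 0.72 for Oasl2, 0.62, 0.61 and 0.60 for Bst2 and 0.81, 0.32 and 0.46 for Gbp3, above 0 in each range for these 4 genes. Igtp and Irgm1, by contrast, were below 0 in the ranges 21 to 40 and 41 to 59.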

How the data were processed

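Raw read counts per gene symbol, 1 table per sex, were deposited by the authors as whole numbers per library; which aligner, counting tool, annotation and build they used is not stated in what was available here. RNA was isolated with an RNeasy Fibrous Tissue kit, per the labels' protocols. Groups and the animal number that pairs the limbs come from the sample titles and treatment labels. The pairing was checked: deviations from the group mean correlated at a median of 0.364 within animals and 0.0066 across animals, and exceeded 0.1 in 45 of 56.

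Genes were filtered by edgeR's filter (11886 kept), scaled by TMM and fitted with edgeR 4.0.16 in R 4.3.3 (quasi-likelihood, a term per animal, 1 immobilization effect per sex; Benjamini-Hochberg over all genes, threshold 0.05). A change in log2 CPM within 0.001 counted as none. Correlations used log2 CPM with a prior count of 2 and 100000 permutations in Python 3.11.15. The fit was tested on simulated data. Alternatives were DESeq2 1.42.0 and its size factors, limma 3.58.1 (voom, and on differences with each animal left out), other filters, a library size without mitochondrial genes, no replicate block, and subsets of animals. Replicates are separate animals. Intervals cover the spread among them, and the labels name no molecular identifiers. A member was called of very low count below a mean of 1 CPM or under the filter. Values by animal are given for members with the smallest p or called in any comparison, and each other list is represented by at most 5 genes, those of smallest p. The members and lists were chosen with earlier results of these data known. Genes without a promoter entry were Usp18, Ifi27, Tap2, Parp14, Iigp1, Zbp1 and Dhx58.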

Additional observations from a re-analysis of the deposited data

How the results depend on the processing

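The count of members higher in the immobilized limb over both sexes was 4. It was 11 with DESeq2, where 1569 of all 11886 genes were higher, and 7 with limma voom, where 1288 were. It was 19 without animals with a low Acta1 limb, where 1878 of 11731 genes were higher. In animals numbered 21 to 40 and in those numbered 41 to 59 it was 0. It kept within 1.5 times of 4 with other size factors, the other library size, both other filters, animals 1 to 20 and without males 15 and 16. With no replicate block, the limbs no longer paired, it was 3. In females the count of 2 became 1 with no filter, 9 with DESeq2, 5 with limma voom, 11 without low-Acta1 animals, 1 with females fitted alone and 0 in animals 21 to 40 and 41 to 59. In males 0 became 1 without the low-Acta1 animals. No member was lower in any of these fits. The 1 member differing by sex in control limbs became 0 without the low-Acta1 animals, and the 3 members whose limbs agreed became 7. In limma fits to the differences between limbs, leaving out each animal gave 3 to 13 members over both sexes (4 with all animals), 0 to 20 in females (1) and 0 to 0 in males (0). Without females 26 and 44 and male 52 it was 13, 7 and 11 over both sexes, and without females 24, 26, 44 and 48 and male 52 it was 3, 20, 5, 3 and 3 in females; without female 6, 23 or 49 or male 31, 35 or 37 it was 2; without female 8, 22, 30, 41 or 42 it was 0 in females. Direction reversed with no replicate block for Ifi27 (-0.20), in animals 1 to 20 for Ifi27 (-0.061), in 21 to 40 for Ifit2 (-0.33), Igtp (-0.30), Irgm1 (-0.036) and Gbp3 in females (-0.18), and in 41 to 59 for Stat2 (-0.013), Igtp (-0.15), Irgm1 (-0.030) and, in males, Irf7 (-0.50), Oasl2 (-0.42), Bst2 (-0.14) and Gbp3 (-0.29). Over all genes, 1139 rose and 1232 fell for both sexes, against 1878 and 1936 without low-Acta1 animals, 510 and 598 in animals 1 to 20, 1 and 0 in 21 to 40, and 2 and 0 in 41 to 59. For females (250 and 293) it was 81 and 64 with no filter, 597 and 548 with DESeq2 and 336 and 419 with voom. It was 950 and 1067 without low-Acta1 animals, 56 and 28 fitted alone, and 0 in both later ranges. For males (130 and 133) it was 72 and 37 with no filter, 323 and 253 with DESeq2, 237 and 217 with voom, 312 and 277 with no replicate block, 496 and 575 without low-Acta1 animals, 319 and 263 fitted alone, and at most 5 in any range. The members following the lymphocyte sum were 9, and 26 over all 56 animals. Of all 11886 genes, 739 and 4410 did so. The causes were not tested. The number ranges hold fewer animals than the whole set, and they keep the animals with a low-Acta1 limb. These were female 2 in 1 to 20 and females 22 and 26 and male 35 in 21 to 40. In 41 to 59 they were females 41, 42, 44 and 48 and males 52 and 55. Depth limits the 6 genes of very low count.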
